A study of Bos indicus and Bos taurus with 17 samples.

Results

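The genes described here encode the proteins of the cytosolic ribosome. They were measured in cells captured as epithelial cells from the milk of Kashmiri cattle, labelled Bos indicus, and Jersey cattle, labelled Bos taurus. Members were chosen by gene symbol alone, as the named entries whose symbol is RPL, RPS or RPLP followed by a number and, in some cases, by A, X, Y or L. The rule found 48 entries and 47 genes among 25121 entries with a gene name, because RPS26 was carried by 2 entries, of which the second was listed at 0 in all groups. Of the 47 genes, 26 belong to the large subunit and 21 to the small subunit. Kashmiri cattle are a local breed and Jersey cattle a dairy breed, and milk was collected on day 15 (D15, early lactation), day 90 (D90, mid lactation) and day 250 (D250, late lactation) in milk. The labels give 17 samples in 6 groups, with 2 samples for Jersey at D90 and 3 for each other group, from cows in lactation 2 or 3. All 3 Kashmiri cows at D90 and all 3 Jersey cows at D250 were in lactation 2, and the other groups mixed both. The study's methods place all cows in a single lactation and name the same few cows of each breed for every stage, which the labels do not show, so the lactation number behind a group is uncertain. Breed and species label cannot be told apart. In the labels each stage goes with a single month, so stage and season cannot be told apart. The labels name no treatment, and the cells of every group were captured from defatted milk on magnetic beads coated with an antibody to keratin 18.

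A ribosome is built of a small subunit, which reads the mRNA, and a large subunit, which joins amino acids into a chain. Each subunit holds many different proteins, nearly all in a single copy per ribosome, so their genes are usually expressed together and at high levels. Their mRNAs begin with a terminal oligopyrimidine tract (a run of pyrimidine bases at the 5′ end), through which the growth-sensing kinase mTOR controls their translation. Secretory mammary epithelium makes large amounts of milk protein and therefore carries many ribosomes.

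The authors' values are FPKM, the sequenced fragments of a gene divided by its transcript length and by the mapped reads, with 1 pooled value per gene for each group. Where 3 values of a breed follow each other, they are D15, D90 and D250 in that order. Values of single cows were not analysed here, so no value has an error, no difference was tested, and a single cow could carry a group value. The reads behind a value, and so its precision, are unknown. The scaling by length puts genes on a common scale. Reads that mapped to several places were discarded and some entries are joined, however, and this can differ between genes. Levels of different genes, and of the subunits, are compared below with that limit, and the part of these steps was not tested. The FPKM of all named entries summed to between 492437 (Kashmiri D250) and 971915 (Kashmiri D15), and the caseins CSN1S1 and CSN2 were listed at 0 in 5 of the 6 groups, so the sum does not hold all milk protein mRNA. Ratios are the later over the earlier day, or Jersey over Kashmiri.

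The tissue label was compared with cell type markers. KRT18, the keratin used for the capture, had 51.3, 9.13 and 11.5 FPKM in Kashmiri and 33.7, 1.59 and 4.51 FPKM in Jersey cattle. The 13 epithelial markers found, of 14 listed, summed to between 3264 FPKM (Jersey D90) and 17674 FPKM (Kashmiri D250), and the milk protein genes among them were listed at 0 in some groups. LALBA alone had 13031 FPKM in Kashmiri at D250 and was listed at 0 at D15 in both breeds. CSN1S1 and CSN2 were above 0 in Jersey at D90 alone, with 949 and 1068 FPKM. These sums therefore do not rank the groups by epithelial content. The 7 neutrophil markers found, of 12 listed, summed to 192, 508 and 627 FPKM in Kashmiri and to 4866, 5773 and 13898 FPKM in Jersey cattle. The neutrophil markers found were above 0 in every group, and the defining marker CXCR2 was not analysed here. In Jersey cattle the neutrophil sum was above the epithelial sum at D90 (3264 FPKM) and at D250 (7664 FPKM), although the epithelial sum lacks milk protein mRNA. The values therefore cannot be taken as those of epithelial cells alone. The 10 macrophage markers summed to between 109 and 491 FPKM in Kashmiri and between 1014 and 2145 FPKM in Jersey cattle. Neutrophil sums and macrophage sums were thus higher in Jersey cattle on each day. Gene by gene this held for 9 of 9 macrophage markers tested at D15 and at D90, while at D250 4 of the 9 were lower in Jersey cattle and the median log2 ratio of Jersey over Kashmiri was 0.10. The 10 markers of T and NK cells summed to 531, 2122 and 496 FPKM in Kashmiri and to 354, 207 and 127 FPKM in Jersey cattle, so that Kashmiri D90 was highest. The 6 B cell markers stayed between 8.44 and 78.0 FPKM in sum, and the red blood cell markers HBB and ALAS2 were each listed at 0 in 3 groups. KRT18 and KRT8 were above 0 in every group. These sums moved with breed and with day, and their part in the results below was not tested. In RNA of bulk cells, fewer cells of a type and less RNA per cell cannot be told apart.

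Of the 47 genes, 39 had at least 10 FPKM in all 6 groups, 19 of the large and 20 of the small subunit. Their median level was 5474, 4673 and 2035 FPKM in Kashmiri and 2411, 1101 and 1288 FPKM in Jersey cattle. Every Kashmiri median was above the Jersey median of the same day. At least 1000 FPKM was reached in all 6 groups by 25 genes. Of the 100 genes with the highest FPKM, ribosomal protein genes were 35, 35 and 34 in Kashmiri and 28, 17 and 18 in Jersey cattle.

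The 5 genes with the highest mean level were RPLP1, RPS28, RPS12, RPS20 and RPS2. RPLP1, an acidic protein of the stalk that recruits translation factors, had 21400, 15713 and 7042 FPKM in Kashmiri and 9184, 3007 and 3775 FPKM in Jersey cattle. It was the highest ribosomal protein gene in 5 of the groups, and RPS12, with 3090 FPKM, was highest in Jersey at D90. RPS20, which lies in the head of the small subunit, had 14923, 6511 and 2528 FPKM in Kashmiri and 8756, 1977 and 1649 FPKM in Jersey cattle. Its entry is joined with the small nucleolar RNA snoU54, so reads of either cannot be separated. RPS2, at the channel where mRNA enters, had 15241, 7365 and 3469 FPKM in Kashmiri and 6719, 1690 and 1744 FPKM in Jersey cattle. RPS12 and RPS28 are described with the comparison of D90 and D250. For all 5 genes the Kashmiri value was the higher on each day, and apart from RPS12 in Kashmiri cattle the level was highest at D15.

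**Figure D1:**
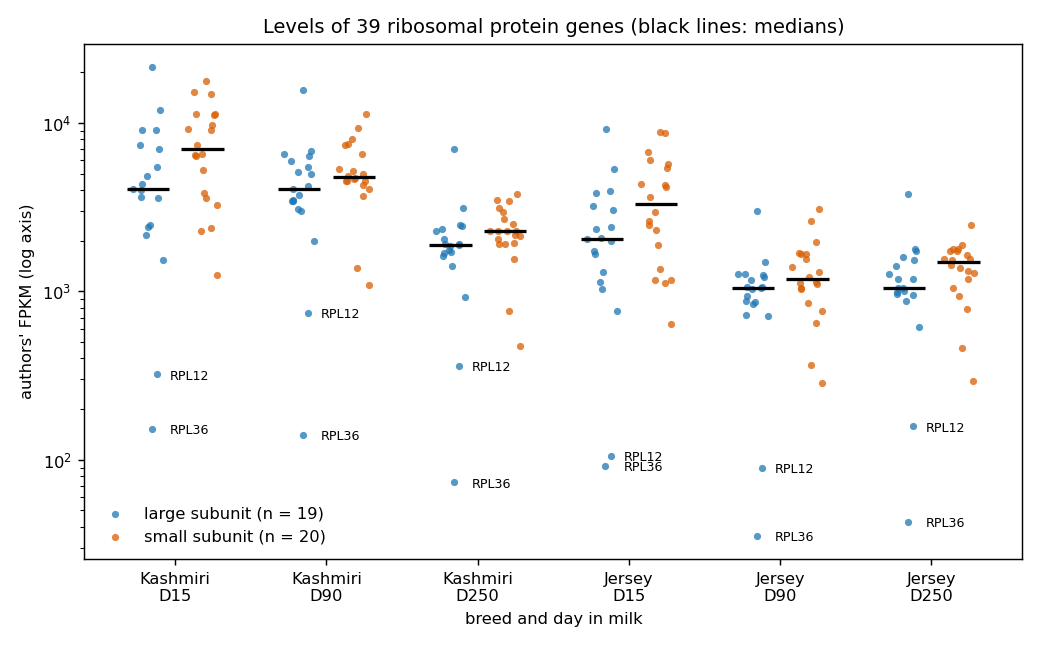
FPKM of the 39 genes with at least 10 FPKM in all groups (log axis) by breed and day in milk, 1 point per gene, blue for the large and orange for the small subunit, with black lines at the subunit medians. The points lie higher in Kashmiri than in Jersey cattle on each day, RPL12 and RPL36 lie below the rest in every group, and the small subunit median is above the large subunit median in each group.

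The spread between genes was widest at D15. Over the 39 genes the log2 level had a standard deviation of 1.44 in Kashmiri and 1.45 in Jersey cattle at D15, against 1.15 and 1.18 at D90 and 1.07 and 1.10 at D250. The highest gene was 140 times the lowest in Kashmiri at D15 and 87.9 times the lowest in Jersey at D250. The lowest of the 39 was RPL36 in every group, with 153, 141 and 73.6 FPKM in Kashmiri and 92.4, 35.3 and 43.0 FPKM in Jersey cattle.

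Among the 39 genes, those of the small subunit stood above those of the large subunit, most of all at D15. The set is incomplete and unevenly so. It holds 20 of the 21 small and 19 of the 26 large subunit genes found, and RPL3, RPL4 and RPL5, among others, were not analysed here. The median of the 20 small subunit genes was 1.72 times that of the 19 large subunit genes in Kashmiri and 1.60 times in Jersey cattle at D15. At D90 the ratios were 1.19 and 1.13, and at D250 they were 1.20 and 1.41. The ratio of the summed levels went from 1.51 to 1.22 and 1.18 across the days in Kashmiri, and from 1.60 to 1.33 and 1.20 in Jersey cattle, so by sums both breeds were nearest to equal at D250. The 2 breeds shared the wide D15 gap between the subunits.

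The other 8 genes were under 10 FPKM in all 6 groups, and 7 of them belong to the large subunit. RPS16, a core small subunit gene, had 4.97, 3.36 and 1.24 FPKM in Kashmiri and 0.689, 0.194 and 0.335 FPKM in Jersey cattle. RPL8, a core protein near the peptidyl transferase centre, where the peptide bond is made, had 2.43, 3.54 and 1.34 FPKM in Kashmiri and 1.28, 1.03 and 1.00 FPKM in Jersey cattle. These levels were far below those of the other genes of the same particle. RPL23, RPL30, RPL10L and RPL7 were listed at 0 in at least 1 group and never passed 0.136 FPKM, and RPL7 was listed at 0 in all 6. RPL3L, a copy of RPL3 used mainly in muscle, ranged from 0.0307 to 0.0959 FPKM, and RPL10L, a copy of RPL10 known from testis, was above 0 in Jersey at D250 alone, with 0.0238 FPKM. RPL8, RPL7, RPL23, RPL30 and RPS16 are needed by every ribosome, and reads that mapped to several places had been discarded by the authors. The part of that step in these low values was not tested.

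The 39 genes held a large part of the FPKM listed for named entries, and that part differed between days and breeds. They made up 27.1%, 24.9% and 17.3% of the FPKM of all named entries in Kashmiri cattle. The Jersey share was 16.7%, 7.52% and 6.21%. By share, Kashmiri was above Jersey on each day and D15 was above D90 and D90 above D250 in each breed. By median level the last step differed in Jersey cattle, where D250 was above D90. The sum behind the shares lacks milk protein mRNA unevenly. CSN3 had 8174 FPKM in Kashmiri at D15 and was listed at 0 there at D90 and D250. LALBA was listed at 0 at D15 in both breeds and had 12933 FPKM in Kashmiri at D90. Casein and whey protein FPKM reported by the study were far above the values listed here in every group. With that mRNA in the sum all shares would be lower, and their order was not computed. Leaving out the milk protein genes found kept the order of the shares, but this cannot stand for mRNA that is not listed.

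**Figure D2:**
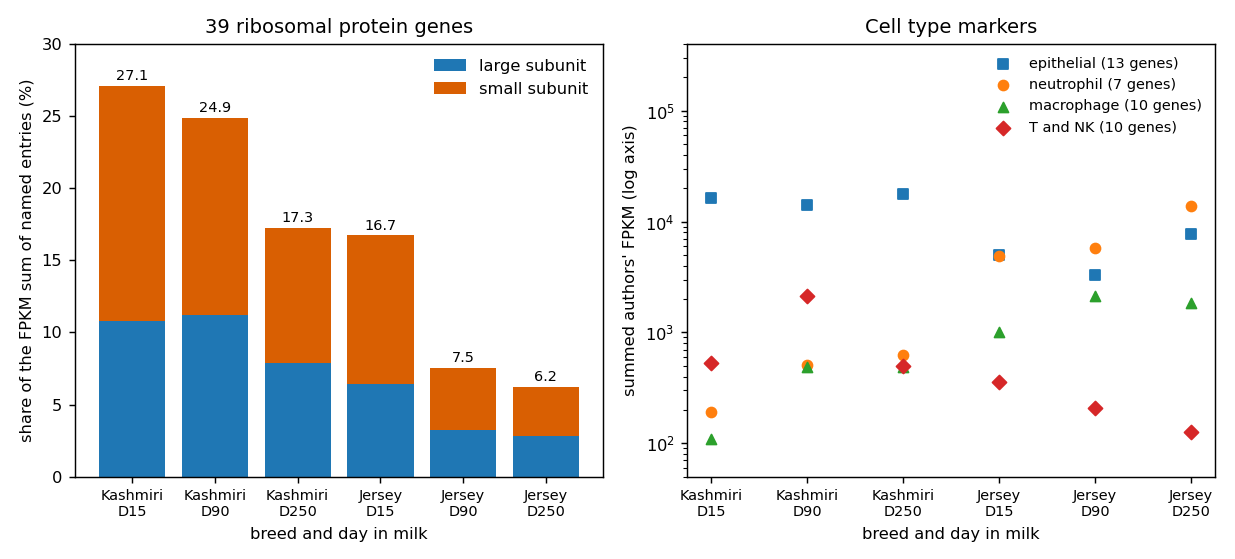
Left, share of the FPKM of all named entries held by the 39 genes (percent, bars from 0), split into large (blue) and small (orange) subunit, by breed and day. Right, summed FPKM (log axis) of the markers of 4 cell types in the same groups. The epithelial sum includes milk protein genes that were listed at 0 in some groups, so it does not rank the groups by epithelial content. The share is 27.1% in Kashmiri D15 and 6.2% in Jersey D250, and the neutrophil sum is 192 in Kashmiri D15 and 13898 in Jersey D250.

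For each of 9 comparisons, genes with at least 1 FPKM in either group were compared by log2 ratio with a pseudocount of 1 FPKM, and a gene was counted past the fold when the log2 ratio was at least 1 in size. Of the 47 ribosomal protein genes, 41 entered the comparisons within Kashmiri cattle and between breeds, and 40 those within Jersey cattle. In Kashmiri cattle between D15 and D90, 6 of 41 genes were past the fold lower and 2 higher, while 18.8% of all 11297 genes tested were lower and 14.7% higher. The median of the ribosomal protein genes was -0.31 and that of all genes -0.01. In Jersey cattle between the same days, 25 of 40 genes were past the fold lower and 0 higher, while 16.9% of 11080 genes were lower and 12.8% higher. The median was -1.25 against -0.07 for all genes. The lower level at D90 was thus larger for the median gene in Jersey than in Kashmiri cattle. From D15 to D90 the markers of T and NK cells had median ratios of 1.98 (Kashmiri) and -1.04 (Jersey). The epithelial markers had -2.45 over 11 genes tested (Kashmiri) and -1.91 over 13 (Jersey). Both include milk protein genes listed at 0 at D15 or D90, with ratios up to 13.7 and 10.1, so these medians do not rank the breeds. KRT18, KRT8, KRT19, KRT7, EPCAM, ELF5 and FASN had the lower ratio in Jersey cattle, and CDH1 and XDH in Kashmiri cattle. The part of these markers in the ratios of the ribosomal protein genes was not tested. With each group rescaled to the sum of the other genes, the Kashmiri median was -0.03. Then 3 genes were lower and 3 higher, beside 14.2% and 20.3% of all genes. With the upper quartile of the other genes it was -0.14, with 5 lower and 2 higher, beside 16.1% and 18.1%. The median of all genes moved by 0.24 and 0.15. Relative to it, the Kashmiri median was -0.30 as deposited, -0.27 and -0.28. In Jersey cattle 24 genes were lower and 0 higher under both, where 14.8% and 14.2% of all genes were lower.

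The genes behaved differently from one another between D15 and D90, and in a like way in both breeds. The log2 ratios of the 39 genes ran from -1.40 to 1.81 in Kashmiri, with a standard deviation of 0.73, and from -2.15 to 0.42 in Jersey cattle, with a standard deviation of 0.65. The 3 lowest in Kashmiri cattle were RPL7A, RPS6 and RPS15 and the 3 highest RPS27, RPL12 and RPL37. The 3 lowest in Jersey cattle were RPS20, RPS15 and RPL7A and the 3 highest RPS27, RPL39 and RPL36A. Across the 39 genes the ratios of the 2 breeds had a Spearman rho of 0.93 and a Pearson r of 0.93, against 0.61 and 0.59 across 2967 other genes with at least 10 FPKM in all groups. These points rest on 4 group values and the same gene models, and genes are not independent replicates. The 2967 other genes were not matched to the 39 for level, here or below. Both breeds were lower at D90 for 25 genes and higher for RPL39 and RPS27, and for the remaining 12 genes the level was higher in Kashmiri and lower in Jersey cattle.

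**Figure D3:**
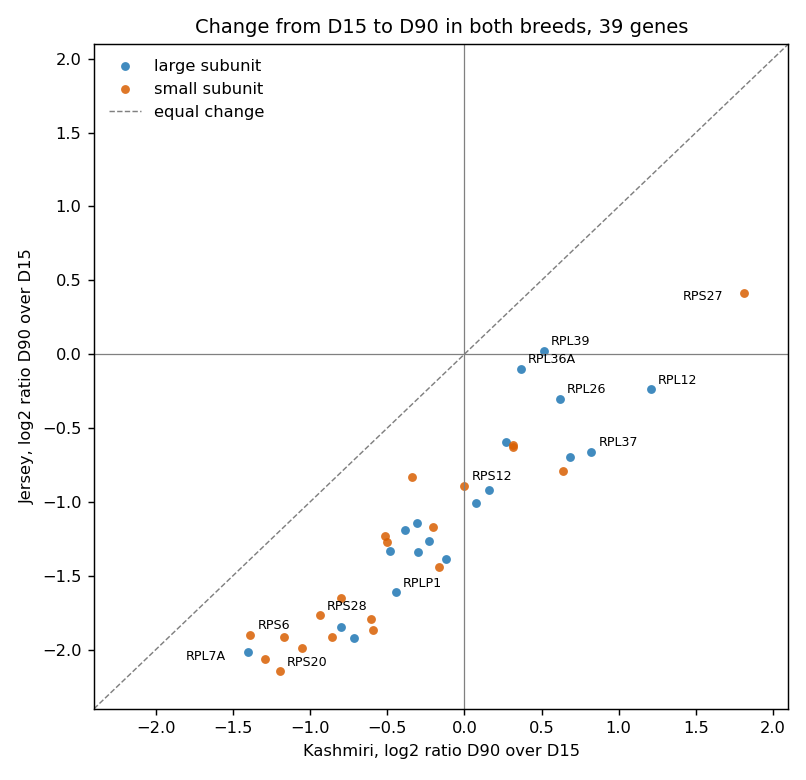
Log2 ratio of D90 over D15 in Jersey (y axis) against Kashmiri cattle (x axis), 1 point per gene for the 39 genes, blue for the large and orange for the small subunit, with the dashed line at equal ratios. Every point lies below the dashed line, and RPS27, RPL12 and RPL37 lie at the right end and RPL7A, RPS6 and RPS20 at the lower left.

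The small subunit genes were the lower ones at D90. Kashmiri cattle had a small subunit median of -0.55 and Jersey cattle one of -1.54, against -0.12 and -1.14 for the large subunit genes. The ranges of the subunits overlapped, from -1.39 to 1.81 for the small and from -1.40 to 1.21 for the large subunit in Kashmiri cattle.

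Between D90 and D250 the breeds parted. In Kashmiri cattle, 29 of 41 genes were past the fold lower at D250 and 0 higher, while 8.77% of 11414 genes were lower and 8.95% higher, and the medians were -1.13 and 0.03. In Jersey cattle, 0 of 40 genes were past the fold in either direction, while 4.22% of 10955 genes were lower and 16.6% higher, and the medians were 0.16 and 0.15. All 39 genes were lower at D250 in Kashmiri cattle, with ratios from -1.57 (RPS12) to -0.76 (RPL7A). In Jersey cattle 33 of them were higher and 6 lower, from -0.48 (RPS28) to 0.81 (RPL12). The ratios lay close together, with standard deviations of 0.21 in Kashmiri and 0.27 in Jersey cattle, against 0.69 and 0.77 over the 2967 other genes. The T and NK markers were lower with them in Kashmiri cattle, with ratios from -2.32 to -1.49 and 10 of 10 past the fold lower. In Jersey cattle their median was -0.29 and 1 of 10 was past the fold lower. The epithelial markers had medians of 1.70 over 10 genes tested (Kashmiri) and 1.09 over 13 (Jersey). The Jersey list includes CSN1S1, CSN2 and CSN3, above 0 at D90 and listed at 0 at D250, so these medians do not rank the breeds. The part of these markers in the ratios was not tested. The direction of the Jersey median depended on the scaling. It was -0.28 with each group rescaled to the sum of the other genes and -0.10 with their upper quartile, and the median of all genes tested moved by -0.38 and -0.22. In Kashmiri cattle 1 gene was past the fold lower with the sum and 22 with the upper quartile, where 3.40% and 7.47% of all genes were lower. The median of all genes moved by 0.49 and 0.10. Relative to the median of all genes, the Jersey median was 0.00 as deposited, -0.05 and -0.03, and the Kashmiri median was -1.16, -1.12 and -1.15.

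The genes at the ends of the D90 to D250 comparison were partly the same in both breeds. RPS12, a small subunit protein of the beak, had 11282, 11287 and 3804 FPKM in Kashmiri and 5721, 3090 and 2494 FPKM in Jersey cattle. RPS12 was thus level between D15 and D90 in Kashmiri cattle and then 2.97-fold lower, while in Jersey cattle it was 1.85-fold lower and then 1.24-fold lower. RPS28, at the channel where mRNA leaves, was 2.71-fold lower at D250 than at D90 in Kashmiri and 1.39-fold lower in Jersey cattle. The Spearman rho of the ratios between the breeds was 0.61 across the 39 genes and 0.097 across the 2967 other genes.

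Over the whole interval from D15 to D250, 29 of 41 genes were past the fold lower and 0 higher in Kashmiri cattle, while 14.5% of 11487 genes were lower and 11.2% higher. The medians were -1.44 and -0.04. In Jersey cattle, 21 of 40 genes were past the fold lower and 0 higher, while 17.9% of 11320 genes were lower and 24.5% higher, and the medians were -1.05 and 0.07. Of the 39 genes, 35 were lower at D250 in both breeds, RPL12 and RPS27 were higher in both, and RPL39 and RPS25 were lower in Kashmiri and higher in Jersey cattle. For the small subunit the medians were -1.77 (Kashmiri) and -1.39 (Jersey), and for the large subunit -1.18 and -0.80. The small subunit median minus the large subunit median was -0.59 in each breed, against -0.11 in Kashmiri and -0.07 in Jersey cattle between D90 and D250. With each group rescaled to the sum of the other genes, the Kashmiri median was -0.65 and the median of all genes moved by 0.72. Then 13 genes were past the fold lower and 1 higher, beside 3.57% and 33.4% of all genes.

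**Figure D4:**
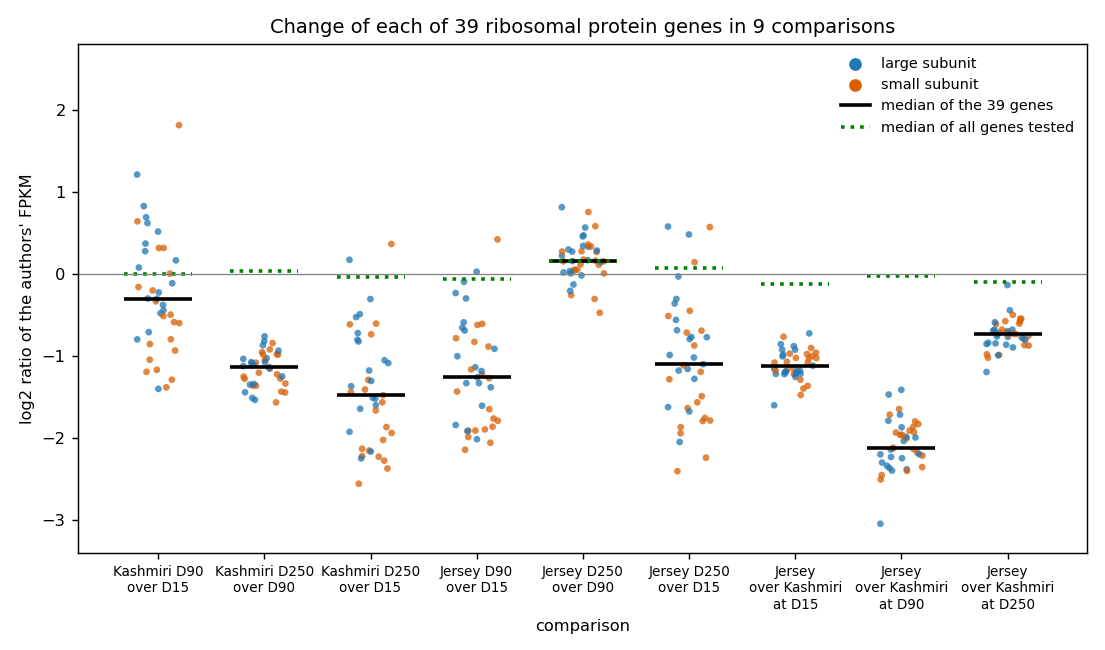
Log2 ratio of FPKM without pseudocount for the 39 genes in each of the 9 comparisons (x axis), 1 point per gene, blue for the large and orange for the small subunit, with black lines at their median and green dotted lines at the median of all genes tested. The points spread over 2.56 to 3.22 log2 units where D15 is compared with a later day, and stay close together between D90 and D250 and between the breeds.

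Some genes stood apart from the shared lower level. A gene was said to depart when its log2 ratio differed by at least 1 from the median of the ribosomal protein genes in that comparison, a measure in which the scaling of a whole group nearly cancels. The share of all genes lying as far from their own median was not computed. The 2967 other genes had standard deviations of 1.05 (Kashmiri) and 0.98 (Jersey) from D15 to D90, and 0.87 and 1.33 from D15 to D250. For the 39 genes they were 0.73, 0.65, 0.72 and 0.75 in the same order. Departing thus describes a gene within its list and does not set the list apart from other genes. Between D15 and D90, 5 genes departed in Kashmiri cattle (RPL7A, RPS6, RPL37, RPS27 and RPL12) and 5 in Jersey cattle (RPS27, RPL39, RPL36A, RPL12 and RPL8). RPL8, at 1.28 and 1.03 FPKM, did not depart with a pseudocount of 0.1 FPKM, which left the other 4 in Jersey cattle. Between D15 and D250, 4 departed in Kashmiri and 7 in Jersey cattle, the latter RPS28, RPS20, RPS27, RPS25, RPL39, RPL26 and RPL12. Between D90 and D250 in either breed, and between the breeds on any day, 0 genes departed, and RPL12 came nearest to the limit in Jersey over Kashmiri at D90, with a log2 ratio -0.997 from the median.

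RPS27, a zinc-finger protein of the small subunit, departed upward most. It had 2291, 8037 and 2943 FPKM in Kashmiri and 1174, 1568 and 1740 FPKM in Jersey cattle. Its D90 level was 3.51-fold the D15 level in Kashmiri and 1.34-fold in Jersey cattle, which was 2.12 and 1.66 log2 units above the median of the members. RPS27A, a different protein that is made as a fusion with ubiquitin, had 6466, 4519 and 2035 FPKM in Kashmiri and 2637, 1123 and 1437 FPKM in Jersey cattle, so it was lower at D90 in both breeds.

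RPL12, which forms the base of the stalk, had 322, 745 and 362 FPKM in Kashmiri and 106, 90.02 and 158 FPKM in Jersey cattle. It was 2.31-fold higher at D90 than at D15 in Kashmiri and 1.18-fold lower in Jersey cattle, and still departed upward in both breeds, by 1.51 and 1.01. From D15 to D250 it departed by 1.61 and 1.62. RPL39, a small protein in the wall of the exit tunnel, had 2177, 3106 and 1756 FPKM in Kashmiri and 1144, 1164 and 1594 FPKM in Jersey cattle. From D15 to D250 it was 1.24-fold lower in Kashmiri and 1.39-fold higher in Jersey cattle, which was 1.13 and 1.53 above the median.

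RPS20 was the gene that departed downward in both breeds. From D15 to D250 it was 5.90-fold lower in Kashmiri and 5.31-fold lower in Jersey cattle, 1.12 and 1.35 below the median. RPL7A, a large subunit protein, had 9152, 3457 and 2035 FPKM in Kashmiri and 3823, 943 and 1193 FPKM in Jersey cattle. RPS6, the protein that the mTOR-driven S6 kinases phosphorylate, had 3593, 1375 and 765 FPKM in Kashmiri and 1361, 365 and 459 FPKM in Jersey cattle. In Kashmiri cattle they were 2.65-fold and 2.61-fold lower at D90 than at D15, the lowest ratios of all members, and from D90 to D250 both were among the 3 genes with the smallest difference.

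**Figure D5:**
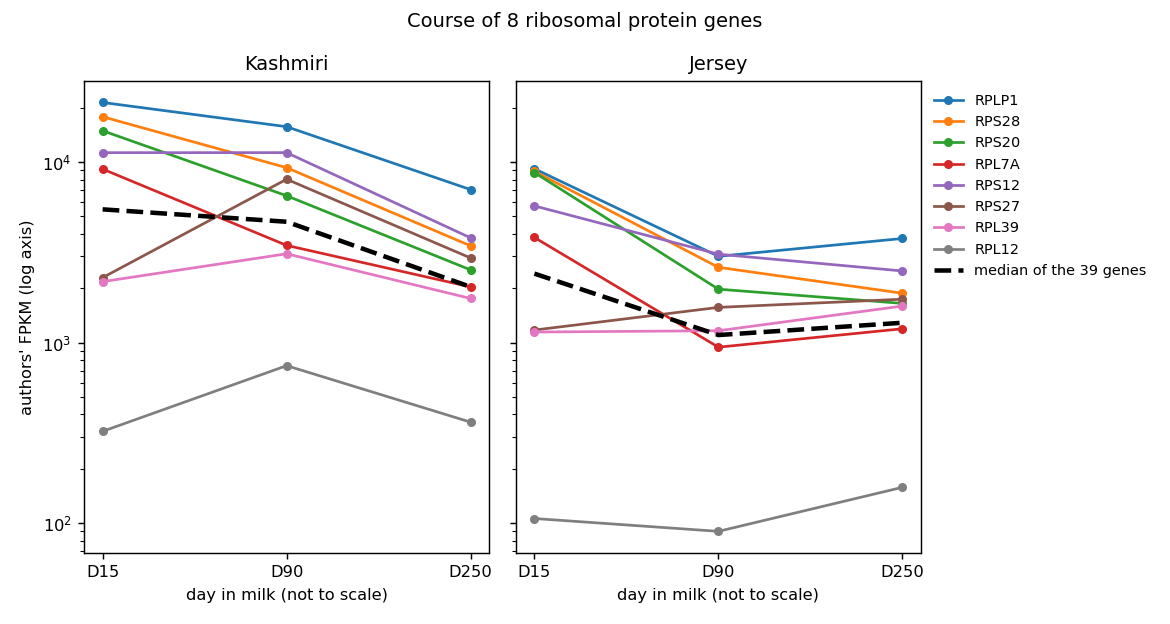
FPKM (log axis) of 8 genes against day in milk (not to scale) in Kashmiri (left) and Jersey cattle (right), with the median of the 39 genes as a dashed line. RPS27 starts below the median at D15 and lies above it at D90 and D250 in both breeds, while RPL7A starts above the median and lies below or at it from D90 on.

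The breeds were compared on each day. At D15, 29 of 41 genes were past the fold lower in Jersey cattle and 0 higher, while 13.0% of 11202 genes were lower and 15.9% higher, and the medians were -1.12 and -0.13. At D90, all 41 genes tested were past the fold lower and 0 higher, while 15.9% of 11209 genes were lower and 17.0% higher, and the medians were -2.04 and -0.03. At D250, 2 of 41 genes were past the fold lower and 0 higher, while 11.7% of 11642 genes were lower and 22.8% higher, and the medians were -0.74 and -0.10. For the median of the 39 genes, Kashmiri cattle were 2.18-fold higher at D15, 4.36-fold higher at D90 and 1.67-fold higher at D250. All 39 genes were lower in Jersey cattle on all 3 days. The medians stayed below 0 with FPKM rescaled to the sum or to the upper quartile of the other genes. At D250, 40 genes were past the fold lower with the sum and 37 with the upper quartile, where 43.8% and 26.7% of all genes were lower. The median of the ribosomal protein genes was then -1.69 and -1.24, and the median of all genes moved by -0.77 and -0.42. Relative to the median of all genes, the ribosomal protein genes stood at -0.63 as deposited, -0.82 and -0.71. At D15 the number past the fold was 13 with the sum and 36 with the upper quartile, where 9.57% and 14.9% of all genes were lower. The neutrophil markers stood the other way, with 7 of 7 higher in Jersey cattle on each day and median log2 ratios of 3.73, 3.90 and 4.78. The T and NK markers were lower in Jersey cattle as the ribosomal protein genes were, with medians of -0.61, -3.64 and -1.77 and with 3, 9 and 8 of 10 past the fold lower. The epithelial markers had medians of -0.92, -1.95 and -1.23 over 10, 13 and 10 genes tested. At D90 these included CSN1S1, CSN2 and CSN3, which were listed at 0 in Kashmiri and above 0 in Jersey cattle. The B cell markers had medians of 0.55, -1.89 and -1.45. D90 was thus the lowest day for the T and NK, epithelial and B cell lists, as for the ribosomal protein genes. The neutrophil list was lowest at D15 and the macrophage list at D250. The part of these markers in the breed difference was not tested.

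The breed ratios of the genes were alike. Over the 39 genes they had standard deviations of 0.18, 0.31 and 0.18 at D15, D90 and D250, against 1.08, 1.18 and 1.42 over the 2967 other genes. The other genes needed only 10 FPKM in all groups, while 25 of the ribosomal protein genes had at least 1000 FPKM in all 6. The part of level in the spread was not tested. The small and large subunit medians were -1.08 and -1.18 at D15, -1.99 and -2.20 at D90, and -0.73 and -0.77 at D250. At the low end stood RPL12 on each day, with ratios of -1.60, -3.05 and -1.20. At the high end stood RPL36 at D15 (-0.73) and RPL39 at D90 (-1.42) and D250 (-0.14). RPL39 at D250 thus differed least, with 1756 FPKM in Kashmiri and 1594 FPKM in Jersey cattle. RPS13, a small subunit protein, followed RPL12 at D90, with 3711 FPKM in Kashmiri and 651 FPKM in Jersey cattle. Among the members under 10 FPKM, RPS16 was 7.20-fold, 17.3-fold and 3.71-fold lower in Jersey cattle on the 3 days, at levels where the precision is unknown.

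The order of the genes by level was nearly the same in both breeds on a given day. Across the 39 genes the Kashmiri and Jersey levels had a Spearman rho of 0.99, 0.88 and 0.93 at D15, D90 and D250, against 0.74, 0.70 and 0.60 across the 2967 other genes. Within a breed, D15 and D90 had a rho of 0.72 in Kashmiri and 0.79 in Jersey cattle, and D90 and D250 had 0.90 and 0.92. The levels of 2 groups share gene models and transcript lengths, so these values describe the tables and carry no test. The order at D15 thus differed from that at the later days in both breeds, and the orders at D90 and D250 were closer to each other.

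By role, the genes at the factor-binding stalk included RPLP0, the protein to which the acidic stalk proteins bind, with 11926, 6840 and 3133 FPKM in Kashmiri and 5337, 1486 and 1728 FPKM in Jersey cattle. RPLP0 and RPLP1 were both lower on each later day in Kashmiri cattle and lowest at D90 in Jersey cattle, while RPL12 beside them departed. RPLP2 was not analysed here. RPL11, which binds 5S ribosomal RNA and can hold the p53 regulator MDM2, had 5474, 4202 and 1905 FPKM in Kashmiri and 2411, 1059 and 1187 FPKM in Jersey cattle. It followed the other members closely and lay at most 0.078 log2 units from their median in all 9 comparisons.

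At the end of the exit tunnel, RPL19, listed in a joint entry with an Ensembl gene, had 6971, 4990 and 2442 FPKM in Kashmiri and 3063, 1214 and 1793 FPKM in Jersey cattle. RPL26, also at the tunnel exit, had 2424, 3719 and 1721 FPKM in Kashmiri and 1037, 841 and 1013 FPKM in Jersey cattle. RPL19 was thus lower and RPL26 higher at D90 than at D15 in Kashmiri cattle, and both were lower in Jersey cattle. RPL5, RPL3, RPL4, RPL17, RPL22, RPL23A, RPL31, RPL35, RPL10 and RPS4X were not analysed here.

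In the small subunit, RPS3, which lines the mRNA entry channel, had 9265, 5320 and 2273 FPKM in Kashmiri and 4374, 1392 and 1553 FPKM in Jersey cattle. RPS26 and RPS28 lie at the mRNA exit. RPS26 had 1260, 1093 and 473 FPKM in Kashmiri and 641, 285 and 295 FPKM in Jersey cattle. Both were lower at D250 than at D90 in Kashmiri cattle, by 2.71-fold for RPS28 and 2.31-fold for RPS26. RPS14 and RPS10 were not analysed here. Of the copies of restricted expression, RPL39L, RPS4Y and RPS27L were not analysed here either.

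Ribosomal proteins whose symbols the rule does not cover behaved in several ways. RPSA had 8650, 4490 and 2343 FPKM in Kashmiri and 4445, 1231 and 1156 FPKM in Jersey cattle. FAU, made as a fusion of a ubiquitin-like protein with a small subunit protein, had 6065, 3023 and 1308 FPKM in Kashmiri and 3579, 1159 and 1324 FPKM in Jersey cattle, so that the breeds were level at D250. RACK1, a scaffold on the small subunit, had 3107, 3270 and 1745 FPKM in Kashmiri and 1341, 819 and 1175 FPKM in Jersey cattle. RPL7L1, a nuclear relative of RPL7, stayed between 51.2 and 86.4 FPKM in all groups. Of 9 genes listed, 5 were found.

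Genes that serve the ribosome in other ways were counted from lists by the same fold. Other mRNAs with a terminal oligopyrimidine tract, of which 10 of 16 were found, had median ratios of Jersey over Kashmiri of -1.22 at D15, -1.47 at D90 and -0.43 at D250, with 7, 8 and 1 of 10 genes past the fold lower and 0 higher, beside 13.0%, 15.9% and 11.7% of all genes lower, so that the count at D250 was near that of all genes. EEF1G, a subunit of the elongation factor that brings aminoacyl-tRNA, had 3142, 1855 and 1009 FPKM in Kashmiri and 1685, 563 and 636 FPKM in Jersey cattle. PABPC1, the poly(A)-binding protein, had 624, 512 and 686 FPKM in Kashmiri and 212, 297 and 609 FPKM in Jersey cattle, without the lower level at D250.

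Genes of ribosome biogenesis, which process ribosomal RNA and assemble the subunits, were rarely past the fold between the breeds. Of 35 genes, 29 were found, and the median ratio of Jersey over Kashmiri was -0.20, -0.16 and -0.15 on the 3 days, with 0, 0 and 1 genes past the fold lower, where the shares of all genes were 13.0%, 15.9% and 11.7%. From D90 to D250 in Kashmiri cattle the median was 0.07 with 0 genes past the fold, where 8.77% of all genes were lower. FBL, the methyltransferase fibrillarin, had 79.2, 52.4 and 40.2 FPKM in Kashmiri and 105, 48.5 and 38.7 FPKM in Jersey cattle. NHP2, of the particles that make pseudouridine, had 55.4, 23.3 and 29.8 FPKM in Kashmiri and 38.9, 16.8 and 13.4 FPKM in Jersey cattle.

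Of the 10 genes of growth control, 0 were past the fold between the breeds on any day, and with 11.7% to 15.9% of all genes lower a list of this size gives little to read from that count. MTOR had 5.35, 4.98 and 6.57 FPKM in Kashmiri and 4.21, 4.47 and 5.12 FPKM in Jersey cattle. RPS6KB1, a kinase of RPS6, had 10.1, 7.86 and 8.25 FPKM in Kashmiri and 5.85, 5.13 and 7.92 FPKM in Jersey cattle. MYC, a transcription factor that drives ribosome production, had 10.8, 30.5 and 19.5 FPKM in Kashmiri and 11.8, 15.8 and 17.1 FPKM in Jersey cattle.

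The ribosome of mitochondria has its own nuclear-encoded proteins. Of 70 such genes, 69 entered the comparisons, and their median level was 30.5, 19.0 and 20.9 FPKM in Kashmiri and 28.9, 17.8 and 14.5 FPKM in Jersey cattle. Between the breeds their median ratios were -0.25, -0.24 and -0.65 at D15, D90 and D250, against -1.12, -2.04 and -0.74 for the cytosolic genes. From D90 to D250 in Kashmiri cattle their median ratio was 0.12, with 0 of 69 genes past the fold where 8.77% of all genes were lower, against -1.13 for the cytosolic genes. From D15 to D90 the mitochondrial medians were -0.70 (Kashmiri) and -0.78 (Jersey), with 23 and 21 of 69 genes past the fold lower, beside 18.8% and 16.9% of all genes. Thus in Kashmiri cattle the median ratio was lower for the mitochondrial than for the cytosolic genes, at -0.31.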

How the data were processed

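RNA of the cells captured from milk in 17 samples was sequenced from poly(A)-selected, stranded libraries. The authors trimmed the reads, aligned them to the bovine build UMD3.1 (Bowtie version 2 in the submitters' processing notes), discarded reads that mapped to several places, and used Cufflinks and Cuffdiff for assembly and quantification. The deposited values are FPKM, with a single value of each gene for every breed at every stage. Columns named for the local breed were taken as Kashmiri. The stages of the labels are the days given in the study's methods.

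Members were matched by symbol, also within joined names, and a repeated symbol was represented by the entry with the highest mean. Log2 ratios used a pseudocount of 1 FPKM for medians and counts over genes with at least 1 FPKM in either group, and no pseudocount for single genes and for the 39 genes with at least 10 FPKM in all groups, a set chosen after seeing the data. The fold limit and the limit for departing were a log2 ratio of 1. No test was possible with 1 value per group, and the depth behind a value is unknown.

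Genes were named by role lists, by the 5 highest mean levels, by the 3 highest and 3 lowest ratios per comparison, by departing in both breeds, and by values of 0, and some of the items so named are not reported here. The members, the roles and the other lists were chosen with earlier results of these data known. Symbols of 46 of the 47 members were in a RefSeq gene table of another assembly, so no coordinates are given. The alternatives were a pseudocount of 0.1 FPKM, members listed at 0 left out, members in joined entries left out, repeated entries summed, a limit of 2 on the log2 ratio, each group rescaled to the sum or the upper quartile of the other genes, and shares of all entries or without milk protein genes. On simulated data for Kashmiri D90 over D15, 200 of 200 altered genes were recovered, and 0 of the 4663 others were called. The shifts and the noise of the simulation were set beforehand, while the noise of the real values is unknown. The simulation therefore checked only that the counting ran, and it gives no rate of missed or false calls for the real data. Scripts ran in Python 3.11.15 with pandas 2.3.3 and numpy 2.4.6, and matplotlib 3.10.9 drew the figures.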

Additional observations from a re-analysis of the deposited data

Results flagged for a closer look

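The comparison of D90 with D250 ran in different directions in the breeds. Among the ribosomal protein genes the median log2 ratio was -1.13 in Kashmiri cattle. It was 0.16 in Jersey cattle. All 39 genes with at least 10 FPKM in every group were lower in Kashmiri cattle while 33 of them were higher in Jersey cattle. The Jersey median was -0.28 or -0.10 with each group rescaled to the sum or the upper quartile of the other genes, so the opposite direction held only for FPKM as deposited. With 1 value per group the difference between the breeds was not tested.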

How the results depend on the processing

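Medians, counts and shares were recomputed under 186 combinations of a result and another setting. The direction and size of 59 medians, 59 counts past the fold (both directions pooled), 25 counts of departing genes and all 24 shares held, where size means within 0.58 log2 units or a factor of 1.5. The split changed for 1 of these pooled counts, since Kashmiri D90 over D15 had 6 genes lower and 2 higher as deposited and 3 lower and 3 higher with FPKM rescaled to the sum of the other genes. The limit on size is wide for small medians. Under that rescaling the Kashmiri D90 over D15 median went from -0.31 to -0.03 and was counted as held. So was the Kashmiri D250 over D90 median, which went from -1.13 to -0.60. Summing repeated entries could not change a result, because the second RPS26 entry was listed at 0 in all groups. With a log2 ratio of 2 in place of 1, the genes past the fold numbered 0 in Kashmiri D90 over D15, 0 in Kashmiri D250 over D90, 10 in Kashmiri D250 over D15, 3 in Jersey D90 over D15, 3 in Jersey D250 over D15, and 0, 22 and 0 between the breeds at D15, D90 and D250. Rescaling FPKM to the sum of the other genes gave 1 gene past the fold in Kashmiri D250 over D90, 14 in Kashmiri D250 over D15, and 13 and 40 between the breeds at D15 and D250, and the medians were -0.65 for Kashmiri D250 over D15, -0.28 for Jersey D250 over D90 and -1.69 between the breeds at D250. With the upper quartile the Jersey D250 over D90 median was -0.10 and 37 genes were past the fold between the breeds at D250. The shares of all genes past the fold under these rescalings are given with each comparison above. With a pseudocount of 0.1 FPKM RPL8 no longer departed in Jersey D90 over D15, which left 4 genes, and 1 gene departed between the breeds at D15 and 1 at D90. A rescaling moves all genes of a group alike. The cause of the other differences was not tested.

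No paired analysis was possible because each group has 1 pooled value. For the same reason no sample was left out, and the precision of a ratio is unknown, most of all for the 8 members under 10 FPKM. Between days of a breed, stage, season, lactation number and cell type markers cannot be told apart as sources of a difference. Between breeds on the same day, breed, species label, lactation number and cell type markers cannot be told apart.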
